A study of Mus musculus with 8 samples.

Results

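The genes of the epithelial-mesenchymal transition (EMT) were followed as a set of 10: the epithelial genes Epcam, Cdh1, Esrp1 and Grhl2, and the mesenchymal genes Zeb1, Zeb2, Snai1, Snai2, Vim and Fn1. They were chosen by name, with earlier results of these data known. Every H3K4me3 peak that the deposited table assigns to 1 of them was taken. That gave 22 of the 35486 listed peaks and 10 of the 20871 genes with a peak. The 4 epithelial genes held 9 of these peaks and the 6 mesenchymal genes held 13.

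EMT is the programme by which cells bound to their neighbours through E-cadherin loosen those contacts and take on a migratory shape. ZEB and SNAI proteins bind E-box sequences and repress epithelial genes such as Cdh1, while GRHL2 and the splicing regulator ESRP1 keep cells epithelial and the miR-200 microRNAs repress Zeb1 and Zeb2. H3K4me3, trimethylation of lysine on histone H3, marks the nucleosomes around active start sites. It is a mark of chromatin and not a count of RNA or protein.

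H3K4me3 was profiled by CUT&Tag in CD45-CD31-EpCAM+ cells sorted from mouse lung tumors. KL mice carry Cre-dependent alleles, Lkb1fl/fl among them, and form lung tumors once adenovirus carrying Cre (Ad-Cre) is given into the nose. KLG4m/m mice have the same alleles and Gpx4m/m, that is, rox-flanked Gpx4 and a DreERT2 recombinase that Cre unlocks, so that tamoxifen then deletes Gpx4 in the Cre-exposed cells. Gpx4 encodes the enzyme that reduces phospholipid hydroperoxides and holds back ferroptosis. Mice of both genotypes were 8 to 10 weeks old at Ad-Cre, and both were given tamoxifen for 2 weeks from week 5 and rested for 3 weeks, so the cells were taken 10 weeks after Ad-Cre. Lkb1 loss and the other Cre-dependent changes of KL mice, Ad-Cre and tamoxifen are therefore shared by both groups. The sources differ on the animals, with 3 mice in total in the labels' protocol, fewer than the 4 libraries, and 2 mice per group in a figure legend, and none ties each library to its own mouse. The n of 2 per group therefore counts libraries, and p-values measure only the spread between libraries.

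There were 2 KL libraries, numbered 1 and 2, and 2 KLG4m/m libraries, numbered 3 and 4, with 3244495 to 3463731 reads in peaks each. Reads differed between the 2 KL libraries by 1.13 times, and between the 2 KLG4m/m libraries by 1.23 times, what counting alone gives (chi-square per degree of freedom), against 2.37 to 2.80 times across groups. Levels are CPM, reads per 1000000 reads in peaks, with TMM scaling between libraries. Each of the 22 peaks is 400 bp wide, so levels of single peaks are per equal length. Differences are log2 fold changes of KLG4m/m over KL from edgeR's quasi-likelihood test, with a Benjamini-Hochberg adjusted p over the whole table and a threshold of 0.05. With 2 libraries against 2, the smallest two-sided p of an exact permutation test on 1 value is 0.333. The peak over the Gpx4 start site had a mean level of 68.8 CPM in KL and 90.7 CPM in KLG4m/m. That peak lies outside the deleted exons and so does not check the knockout.

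With reads summed over the peaks of each gene, edgeR called Epcam and Cdh1 lower in KLG4m/m. They are the genes of 2 adhesion proteins of the epithelial surface. Esrp1 and Grhl2 did not pass the test. The Cdh1 result was the weaker of the 2, as none of its single peaks passed and DESeq2 did not call it (adjusted p = 0.196). The 95% intervals of Cdh1 (-0.57 to -0.18) and Grhl2 (-0.55 to 0.12) overlapped, so being called does not set these genes apart. None of the 6 mesenchymal genes passed the summed test. Of the 22 single peaks, 2 fell, the Epcam promoter peak and a weak peak far upstream of Zeb2, and 0 rose by edgeR. Of all listed peaks, 5.52% were called lower and 3.1% higher. At an unadjusted p under 0.05, 6 of the 22 peaks differed, 5 lower and 1 higher, against 24.6% of all listed peaks in either direction. DESeq2 called 1 peak, the Epcam promoter peak, where it called 244 lower and 33 higher of the 23790 peaks it gave an adjusted p. The summed level of the lung epithelium markers other than Epcam was 281 to 296 CPM in KL and 223 to 243 CPM in KLG4m/m, and that of the blood cell markers was 336 to 339 CPM and 428 to 437 CPM. The part of these markers in the member results was not tested.

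**Figure D1:**
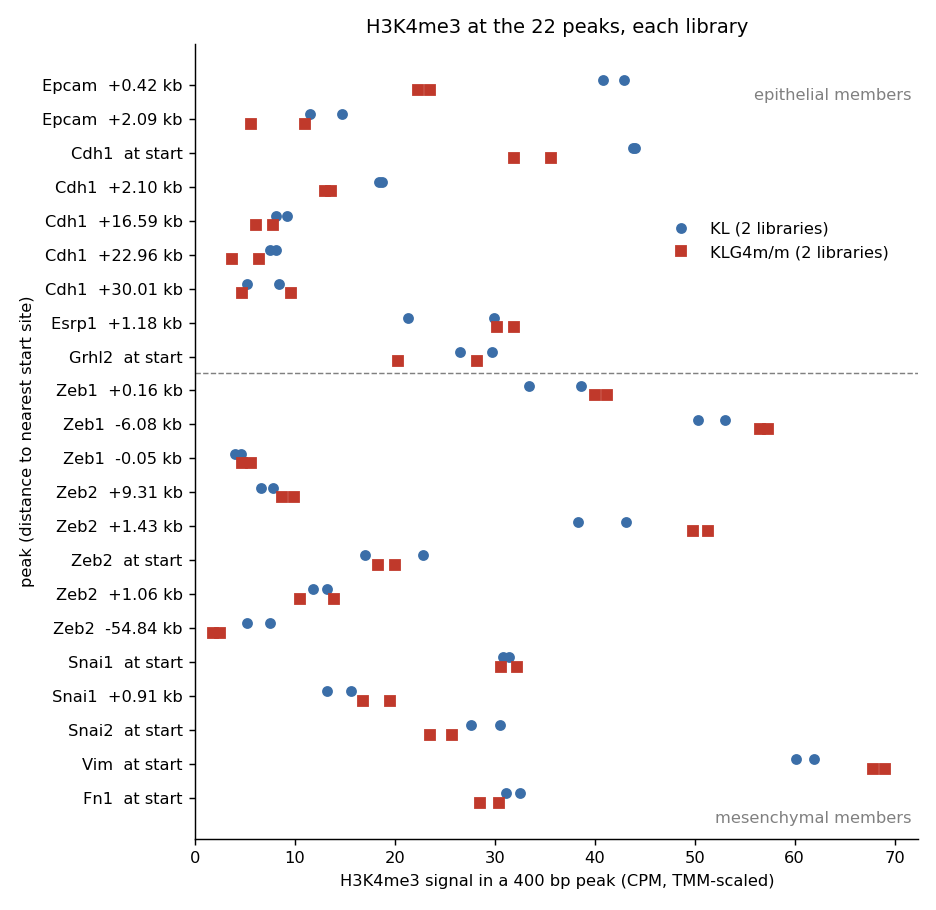
H3K4me3 level (CPM, x axis) of each of the 22 peaks, with 1 point per library and KL as blue circles and KLG4m/m as red squares. Rows are peaks, labelled with the gene and the distance to the nearest start site. The Epcam peak at +0.42 kb reads 40.9 and 42.9 CPM in KL against 22.3 and 23.5 CPM in KLG4m/m, the widest gap in CPM among the peaks.

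Epcam encodes the epithelial cell adhesion molecule. Its protein was also the sort marker, so the cells of both groups were sorted for EpCAM at the surface. The paper's methods give only a lower bound on sort purity, so some other cells may have entered the libraries. The main peak lay on chromosome 17 at 87943830 to 87944230, in the promoter class and 423 bp downstream of the start site. The positions of peaks are as deposited and differ from those of GRCm38. The peak held 142 and 149 reads in KL libraries 1 and 2, and 77 and 76 reads in KLG4m/m libraries 3 and 4. The KL libraries stood well above both KLG4m/m libraries, with no overlap. The mean level went from 41.9 ± 1.46 CPM in KL to 22.9 ± 0.849 CPM in KLG4m/m (SD, n = 2 each), a log2 fold change of -0.87 (SE 0.145, 95% interval -1.17 to -0.57, edgeR adjusted p = 3.74e-04). Among the 17073 peaks within 1 kb of a start site, 8.43% were called lower.

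The second Epcam peak, 2087 bp downstream of the start site, was weaker. It held 40 and 51 reads in KL and 38 and 18 reads in KLG4m/m. Both KLG4m/m libraries were below both KL libraries, but library 3 was near KL library 1 (log2 fold change -0.64, SE 0.270, edgeR adjusted p = 0.137). Summed over both peaks, Epcam H3K4me3 fell from 55.0 ± 3.71 to 31.2 ± 3.0 CPM (SD, n = 2 each), a log2 fold change of -0.81 (SE 0.133, 95% interval -1.08 to -0.55, edgeR adjusted p = 7.57e-06). Of all genes, 9.25% were called lower and 5.23% higher.

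The Epcam call was kept under 10 of 12 other settings. It was lost without KLG4m/m library 3 (log2 fold change -0.92, edgeR adjusted p = 0.0781) and without KLG4m/m library 4 (-0.72, edgeR adjusted p = 0.124), where 0 and 4 of the 20871 genes were called. Within 50 kb of the promoter peak the table lists 4 peaks of other genes, 3 of them assigned to Gm46609, and edgeR called 0 of the 4, also at an unadjusted p under 0.05.

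RefSeq promoter windows (GRCm38.p6) were at hand for 4 of the 10 members, Epcam, Snai1, Vim and Zeb2. The 250 bases before the start are shown for Epcam, whose mark fell, and for the mesenchymal genes Snai1 and Vim, each on the plus strand, with the letters CACCTG or the reverse complement CAGGTG in capitals. These letters are the E-box core that SNAI and ZEB proteins bind. The Epcam window is chr17:87635729-87635978, the Snai1 window chr2:167537945-167538194 and the Vim window chr2:13574061-13574310.
Epcam: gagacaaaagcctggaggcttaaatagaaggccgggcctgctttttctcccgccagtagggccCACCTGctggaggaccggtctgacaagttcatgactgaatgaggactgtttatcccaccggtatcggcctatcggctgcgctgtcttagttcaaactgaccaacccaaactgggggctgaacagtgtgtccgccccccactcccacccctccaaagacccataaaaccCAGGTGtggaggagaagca
Snai1: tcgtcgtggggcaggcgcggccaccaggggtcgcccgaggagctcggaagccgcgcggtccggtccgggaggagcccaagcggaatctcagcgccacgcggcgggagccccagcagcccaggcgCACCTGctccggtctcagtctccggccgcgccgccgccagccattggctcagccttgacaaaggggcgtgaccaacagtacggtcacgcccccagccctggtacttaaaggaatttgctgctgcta
Vim: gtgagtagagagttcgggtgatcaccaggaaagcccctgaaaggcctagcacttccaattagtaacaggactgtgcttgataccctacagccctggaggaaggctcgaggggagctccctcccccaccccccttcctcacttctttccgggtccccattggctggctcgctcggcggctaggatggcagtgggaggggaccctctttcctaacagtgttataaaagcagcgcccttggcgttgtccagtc
The core had 2 matches before Epcam, 187 and 19 bases upstream of the start, and 1 before Snai1, 126 bases upstream. It was absent from the window of Vim and from the 4 windows of Zeb2. Across all 32851 windows, of 300 bases each, 20.2% held it on either strand. The letters AACCGGTT, the core of the GRHL site and their own reverse complement, were in 0.146% of all windows and in 0 of the 7 member windows. A match says only that these letters are present. The Snai1 window was rich in CpG (34 CpG, observed over expected 0.93), the Epcam and Vim windows held 11 CpG each (0.45 and 0.42), and the median over all windows was 0.38.

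Cdh1 encodes E-cadherin, the adhesion protein of adherens junctions. Its peak over the start site held 153 and 152 reads in KL and 110 and 115 reads in KLG4m/m, on chromosome 8 at 107329895 to 107330295. The KL libraries nearly coincided and lay above both KLG4m/m libraries. The mean level was 43.9 ± 0.165 CPM in KL against 33.8 ± 2.62 CPM in KLG4m/m (SD, n = 2 each), and the log2 fold change of -0.38 (SE 0.132) missed the threshold (edgeR adjusted p = 0.0710).

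A second promoter peak of Cdh1, 2105 bp downstream, held 65 and 64 reads in KL and 47 and 42 in KLG4m/m (log2 fold change -0.48, edgeR adjusted p = 0.128). The other 3 Cdh1 peaks lay in intron 2, between 16.6 and 30.0 kb from the start, at levels from 6.41 to 7.78 CPM. Their log2 fold changes were -0.32, -0.61 and 0.06, and none passed the test. Of the 5 peaks of Cdh1, 4 had a log2 fold change below 0.

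Summed over its 5 peaks, Cdh1 held 290 and 305 reads in KL and 216 and 225 in KLG4m/m. The summed level fell from 85.6 ± 3.13 to 66.2 ± 4.97 CPM (SD, n = 2 each), a log2 fold change of -0.37 (SE 0.0990, 95% interval -0.57 to -0.18, edgeR adjusted p = 0.00564). The call was lost in 6 of 12 other settings: with DESeq2 (adjusted p = 0.196), with promoter peaks within 1 kb alone (0.0519), with the strongest peak alone (0.0608), and without KL library 2 (0.0941), KLG4m/m library 3 (0.178) or KLG4m/m library 4 (0.134), edgeR adjusted p in the last 5. The log2 fold change stayed between -0.45 and -0.30 in all 12.

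**Figure D2:**
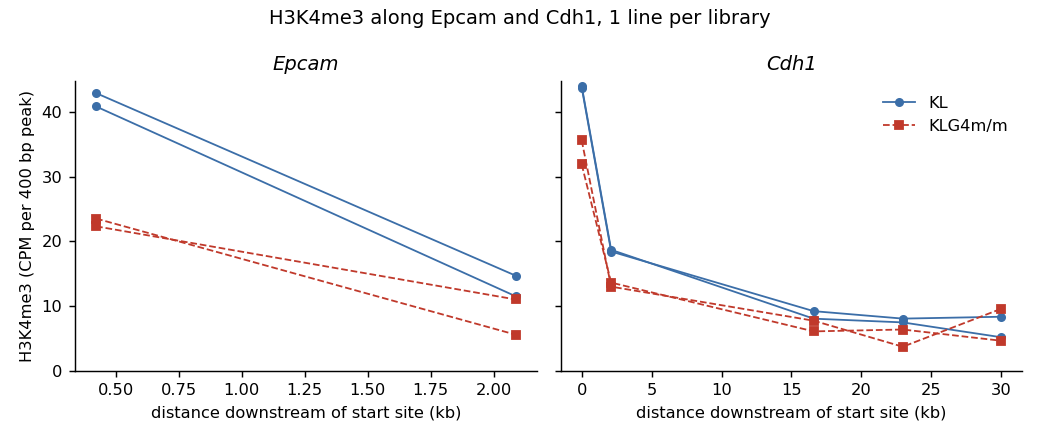
H3K4me3 level (CPM per 400 bp peak, y axis) of each Epcam peak (left) and Cdh1 peak (right) by distance downstream of the start site in kb, with 1 line per library, solid for KL and dashed for KLG4m/m. Lines join listed peaks only. At both peaks nearest the start site the 2 KL lines lie above the 2 KLG4m/m lines, and at 30.0 kb from the Cdh1 start they cross.

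Grhl2 encodes a grainyhead transcription factor that activates epithelial junction genes. Its single peak, over the start site, held 92 and 103 reads in KL and 70 and 91 reads in KLG4m/m. The groups were not separated once scaled to depth, since KLG4m/m library 4 (28.2 CPM) lay between KL library 1 (26.5 CPM) and KL library 2 (29.7 CPM). The log2 fold change was -0.22 (SE 0.167, 95% interval -0.55 to 0.12, edgeR adjusted p = 0.410), and it was 0.00 without KLG4m/m library 3.

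Esrp1 encodes an RNA-binding protein that sets epithelial splicing. Its single peak began 1182 bp past the start site and held 104 and 74 reads in KL and 104 and 103 reads in KLG4m/m. KL library 2 was low, at 21.3 CPM, and the other 3 libraries lay between 29.9 and 31.9 CPM. The log2 fold change was 0.27 (SE 0.162, 95% interval -0.05 to 0.60, edgeR adjusted p = 0.259). The 4 epithelial genes thus included 2 that were called lower and 2 that were not, and Esrp1 had the only summed value above 0.

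Among the mesenchymal genes, Zeb1 and Zeb2 encode zinc finger repressors. Zeb1 had 3 peaks. The strongest, annotated to the 5′ UTR, held 175 and 184 reads in KL and 195 and 185 in KLG4m/m, with levels of 50.3 and 53.0 against 56.6 and 57.3 CPM. At each of the 3 peaks both KLG4m/m libraries were above both KL libraries in CPM, as at 27.5% of all peaks. The weakest of the 3 held 16 and 14 reads in KL and 16 and 18 in KLG4m/m. There KL library 1 and KLG4m/m library 3 had equal reads and parted only through scaling to depth. The log2 fold changes of the 3 peaks were 0.14, 0.17 and 0.24 and none passed the test. Summed, Zeb1 had levels of 88.3 and 95.6 CPM in KL and of 101 and 104 CPM in KLG4m/m. Its log2 fold change was 0.16 (SE 0.0881, 95% interval -0.02 to 0.33, edgeR adjusted p = 0.232).

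Zeb2 had 5 peaks on chromosome 2 that did not move as one. The strongest, 1432 bp downstream of a start site, held 150 and 133 reads in KL and 177 and 161 in KLG4m/m. Both KLG4m/m libraries, at 51.3 and 49.9 CPM, were above both KL libraries, at 43.2 and 38.3 CPM. The log2 fold change was 0.31 (SE 0.123, unadjusted p = 0.0169, edgeR adjusted p = 0.111). This was the 1 member peak that was higher at an unadjusted p under 0.05.

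The weakest Zeb2 peak lay in distal intergenic sequence at 45062214 to 45062614, 54.8 kb upstream of the nearest start site. It held 26 and 18 reads in KL and 6 and 8 reads in KLG4m/m, so all 4 counts were low and the groups did not overlap. The log2 fold change was -1.58 (SE 0.421, edgeR adjusted p = 0.0190). The call was lost with quantile normalization (limma adjusted p = 0.0732) and without KL library 1 (edgeR adjusted p = 0.185) or KLG4m/m library 3 (0.319) or 4 (0.337). DESeq2 gave it no adjusted p, and a filter at a mean of 10 CPM removed it. The only other listed peak within 50 kb, assigned to Vis1, held 19 and 17 reads in KL and 12 and 9 in KLG4m/m (log2 fold change -0.71, edgeR adjusted p = 0.264).

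The other 3 Zeb2 peaks had log2 fold changes of 0.37, -0.05 and -0.03. Summed over its 5 peaks, Zeb2 had levels of 88.6 and 84.7 CPM in KL and of 95.7 and 91.0 CPM in KLG4m/m, a log2 fold change of 0.11 (SE 0.0910, 95% interval -0.07 to 0.29, edgeR adjusted p = 0.457). With promoter peaks within 1 kb alone it was -0.052.

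Snai1 and Snai2 encode the zinc finger repressors Snail and Slug. The Snai1 peak over the start site held 109 and 107 reads in KL and 111 and 99 in KLG4m/m, and the groups overlapped (log2 fold change 0.02, 95% interval -0.28 to 0.31). A second Snai1 peak 906 bp downstream held 46 and 54 reads in KL and 58 and 63 in KLG4m/m (log2 fold change 0.33, edgeR adjusted p = 0.308). The Snai2 promoter peak held 106 and 96 reads in KL and 81 and 83 in KLG4m/m. It lay lower in both KLG4m/m libraries, at 23.5 and 25.7 CPM against 30.5 and 27.7 CPM (log2 fold change -0.24, SE 0.161, edgeR adjusted p = 0.327).

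Vim encodes the intermediate filament vimentin and Fn1 the matrix protein fibronectin. The Vim promoter peak was the strongest member peak. It held 209 and 215 reads in KL and 238 and 219 in KLG4m/m, or 60.1 and 61.9 against 69.0 and 67.8 CPM. Both KLG4m/m libraries were above both KL libraries, and the log2 fold change was 0.17 (SE 0.105, 95% interval -0.05 to 0.38, edgeR adjusted p = 0.305). The Fn1 promoter peak held 113 and 108 reads in KL and 105 and 92 in KLG4m/m (log2 fold change -0.11, SE 0.151, edgeR adjusted p = 0.684).

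**Figure D3:**
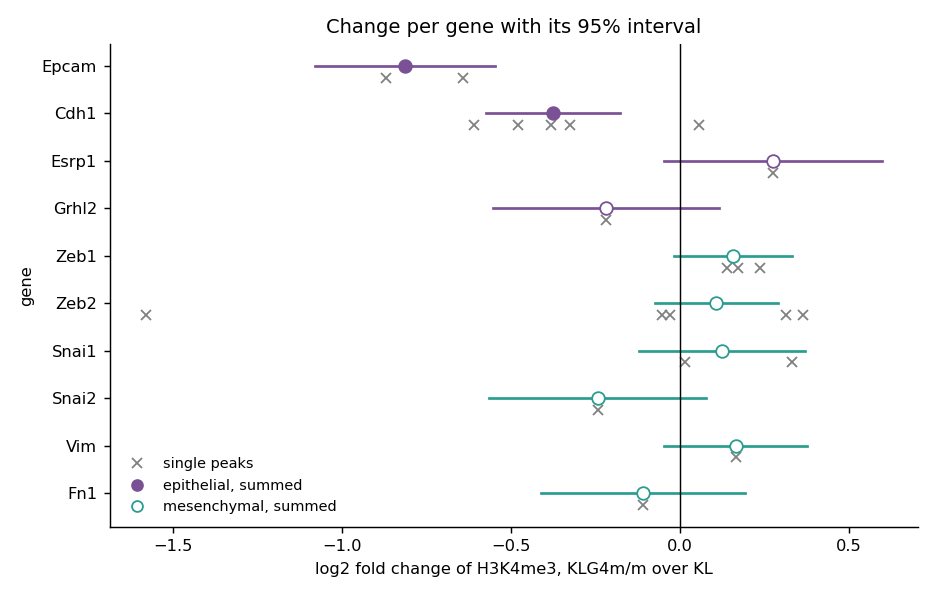
Log2 fold change of H3K4me3, KLG4m/m over KL (x axis), for each gene with reads summed over its peaks (circles, with 95% intervals from the edgeR fit) and for each single peak (grey crosses). Purple marks epithelial and green mesenchymal genes, and filled circles have an adjusted p under 0.05. The intervals of Epcam and Cdh1 lie below 0, and those of the other 8 genes include 0.

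Set against each other, the 2 sides differed in count and in median. By edgeR, 2 of 4 epithelial genes fell, and 0 of 6 mesenchymal genes were called in either direction. Among all genes, 9.25% were called lower and 5.23% higher. The mesenchymal count was also 0 with DESeq2 and with limma. The epithelial count was 1 with DESeq2, with peaks within 1 kb alone and with the strongest peak alone. DESeq2 called 336 lower and 119 higher of the 18038 genes it gave an adjusted p. At an unadjusted p under 0.05 by edgeR, the mesenchymal count was 0 and the epithelial count was 2, where 5974 of all 20871 genes passed. With the strongest peak alone, 1 mesenchymal gene passed at that unadjusted p. The median log2 fold change of the epithelial genes was -0.30, that of the mesenchymal genes was 0.12 and that of all genes was 0.00. The difference of the 2 medians, a description with no test, was -0.41 and ranged from -0.58 to -0.25 when 1 library was left out.

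Over single peaks, both KLG4m/m libraries were below both KL libraries at 6 of 9 epithelial peaks and 3 of 13 mesenchymal peaks, where 26.6% of all peaks did so. They were above both KL libraries at 1 of 9 epithelial and 7 of 13 mesenchymal peaks, against 27.5% of all peaks. The 6 epithelial peaks that were below all belonged to Epcam or Cdh1. The 7 mesenchymal peaks that were above belonged to Zeb1, Zeb2, Snai1 and Vim. Several peaks of 1 gene are not separate members. The mean log2 CPM of the 4 epithelial genes minus that of the 6 mesenchymal genes was -0.28 and -0.29 in KL libraries 1 and 2. It was -0.66 and -0.53 in KLG4m/m libraries 3 and 4, so both were lower than in KL. The epithelial mean went from 5.47 and 5.44 in KL to 5.12 and 5.24 in KLG4m/m, while the mesenchymal mean was 5.74 and 5.73 in KL and 5.77 in both KLG4m/m libraries.

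By the level of the strongest peak in KL, the order was Vim (61.0 CPM), Zeb1 (51.7), Cdh1 (43.9), Epcam (41.9), Zeb2 (40.7), Fn1 (31.8), Snai1 (31.1), Snai2 (29.1), Grhl2 (28.1) and Esrp1 (25.6). Of the 9 pairs of neighbours in this order, 5 did not overlap, and Epcam and Zeb2, Fn1 and Snai1, Snai2 and Grhl2, and Grhl2 and Esrp1 overlapped. All 10 members carried the mark, mesenchymal genes included. Their mean levels over the 4 libraries ranked between percentiles 46.7 and 76.2 of the strongest peaks of all genes, whose median was 30.0 CPM. In KLG4m/m Vim (68.4 CPM) and Zeb1 (56.9 CPM) still led, Zeb2 came next at 50.6 CPM, and Epcam went from rank 4 to rank 10 at 22.9 CPM. The members had from 1 to 5 peaks. Of all genes, 36.5% had 2 or more peaks, and 4.01% had 5 or more, as Cdh1 and Zeb2 did.

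Of the cell type markers, the summed levels of the lung epithelium and blood cell lists differed most between the groups. The lung epithelium list has 10 genes, of which 9 had a peak and Sftpc had none. Of the 9, 4 fell by edgeR, where 9.25% of all genes did: the surfactant genes Sftpa1 (log2 fold change -1.22) and Sftpb (-0.65), the tight junction gene Cldn18 (-0.74) and Epcam. The count of higher genes was 0, also at an unadjusted p under 0.05 and with DESeq2. DESeq2 called 3 lower, where it called 336 lower of the 18038 genes it gave an adjusted p. The summed level of the 9 was 339 to 348 CPM in KL and 257 to 272 CPM in KLG4m/m. The other 5 were not called: the keratin genes Krt8 (log2 fold change -0.28), Krt18 (0.08) and Krt19 (0.12), the mucin gene Muc1 (-0.18) and the lung lineage factor Nkx2-1 (-0.13).

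Of the 10 blood cell markers, 8 had a peak and 4 rose, where 5.23% of all genes did, among them the myeloid genes Spi1 (0.38), Itgam (0.56) and Adgre1 (0.47). DESeq2 called 2 of these 8 higher, where it called 119 higher of the 18038 genes it gave an adjusted p. Ptprc, which encodes the CD45 used to remove blood cells in the sort, had levels of 54.4 and 59.6 CPM in KL and of 69.9 and 63.2 CPM in KLG4m/m (log2 fold change 0.22, edgeR adjusted p = 0.160).

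Of the 10 fibroblast and pericyte markers, 4 had a peak, and Col1a2, Col3a1, Dcn, Lum, Tcf21 and Cspg4 had none. Their summed level was 107 to 109 CPM in KL and 114 to 120 CPM in KLG4m/m, and Pdgfrb rose (log2 fold change 1.29) on 9 and 10 reads in KL and 22 and 23 reads in KLG4m/m. All 10 endothelium markers had a peak, with summed levels of 350 to 395 CPM in KL and 374 to 383 CPM in KLG4m/m. Erg rose (0.38) and Tek fell (-0.55), and neither was called by DESeq2. In bulk sorted cells, fewer cells of a type and less mark per cell cannot be told apart.

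The wider lists that follow were chosen with earlier results of these data known. The wider epithelial list held 46 genes, of which 43 had a peak. By edgeR 9 of 43 (20.9%) fell, against 9.25% of all genes, and 0 rose (1 at an unadjusted p under 0.05, 0 with DESeq2). DESeq2 called 3 of them lower, against 336 of 18038 genes. The 6 with the strongest falls were Pard6b, a polarity gene (-1.36, edgeR adjusted p = 3.18e-09), the desmosome gene Pkp2 (-0.68), the catenin genes Ctnna1 (-0.65) and Ctnnd1 (-0.44), the tight junction scaffold Tjp1 (-0.51) and the protease inhibitor Spint2 (-0.40). In Pard6b the reads were 141 and 184 in KL and 68 and 54 in KLG4m/m, and the groups did not overlap. The median log2 fold change of the list was -0.09.

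The wider mesenchymal list held 48 genes, of which 39 had a peak. By edgeR 3 fell, namely Prrx2 (-1.52), Foxc2 (-0.55) and the integrin gene Itgav (-0.36), and 2 rose, the integrin gene Itga5 (0.33) and the receptor gene Pdgfrb (1.29). These were 7.69% and 5.13% of the list, near the 9.25% and 5.23% of all genes. Prrx2 had low counts, with 34 and 29 reads in KL and 11 and 10 reads in KLG4m/m. DESeq2 called 0 in either direction, against 336 lower and 119 higher of 18038 genes, but it gave Prrx2 and Pdgfrb no adjusted p. The median log2 fold change was -0.13. Both wider lists thus had a median slightly below 0, whereas the medians of the 4 epithelial and 6 mesenchymal members lay on either side of it.

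Signalling that induces EMT was followed through 36 genes of the TGF-beta and SMAD pathway, of which 35 had a peak. By edgeR 4 fell, the receptor genes Acvr1 (-0.77), Acvr1b (-0.55) and Tgfbr1 (-0.30) and the latent TGF-beta carrier Lrrc32 (-0.57). The 3 that rose were Smad3 (0.28), Id2 (0.28) and Tgif1 (0.25), which encode a signal transducer, a target and a corepressor. The shares of 11.4% lower and 8.57% higher were near those of all genes, 9.25% and 5.23%. DESeq2 called 0 of the 35, against 336 lower and 119 higher of 18038 genes, and the median was -0.01.

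Among 24 genes of corepressors and cofactors of SNAI and ZEB proteins, 23 had a peak, and 5 (21.7%) fell by edgeR, against 9.25% of all genes. They were the kinase genes Lats1 (-0.70) and Lats2 (-0.55), the demethylase gene Kdm1a (-0.61), the deacetylase gene Sirt1 (-0.56) and the corepressor gene Ctbp2 (-0.30). The count of higher genes was 0 (1 at an unadjusted p under 0.05, 0 with DESeq2). DESeq2 called 2 lower, against 336 of 18038 genes. The median was -0.08.

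The miR-200 family, which represses Zeb1 and Zeb2 in epithelial cells, was listed with Mir205 and its host gene, and 2 of these 7 genes had a peak. Mir200c and Mir141 are neighbours on chromosome 6. Their mature 3p strands (RefSeq, GRCm38.p6) are shown because both target Zeb messages, with the seed, bases 2 to 8, in capitals.
miR-200c-3p: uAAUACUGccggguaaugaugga
miR-141-3p: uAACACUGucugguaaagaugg
The 2 seeds differ, so the pair stands for the 2 seed groups of the family, with miR-200b and miR-429 sharing the seed of miR-200c and miR-200a that of miR-141. Mir200c held 237 and 206 reads in KL and 164 and 177 in KLG4m/m, lower in both KLG4m/m libraries (log2 fold change -0.32, SE 0.115, edgeR adjusted p = 0.0494). That call was kept in 4 of 12 other settings and was lost with DESeq2 (adjusted p = 0.444) and without any 1 of the 4 libraries. Mir141 had a log2 fold change of -0.07, and the groups overlapped.

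**Figure D4:**
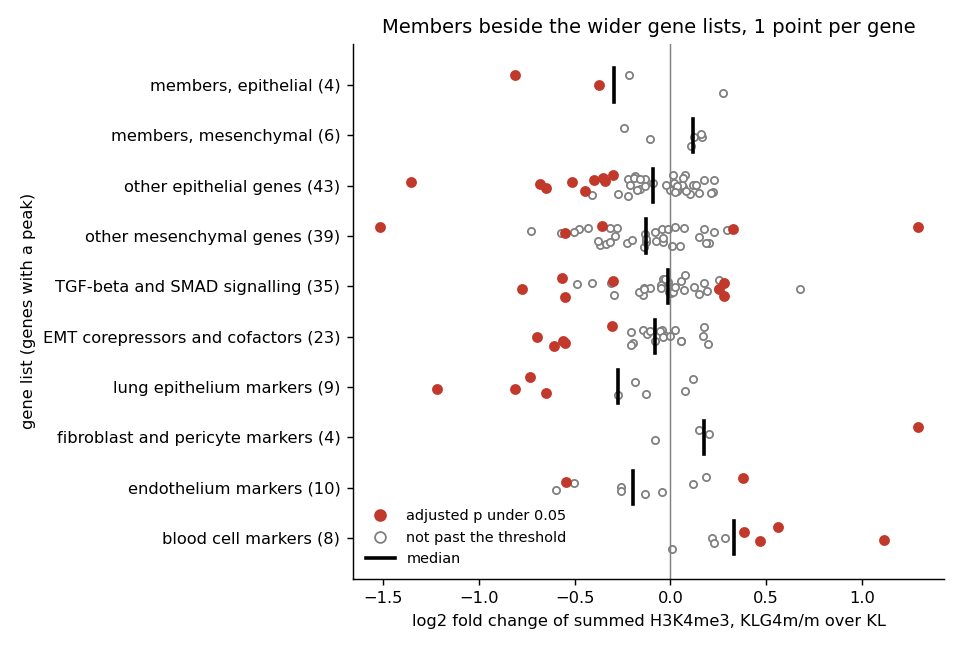
Log2 fold change of summed H3K4me3, KLG4m/m over KL (x axis), with 1 point per gene for the members, the wider lists and the cell type markers. The number of genes with a peak is in brackets, red points have an edgeR adjusted p under 0.05 and black bars are medians. The epithelial members' median is -0.30, the mesenchymal members' is 0.12 and that of the blood cell markers is 0.33.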

How the data were processed

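H3K4me3 was profiled in 2 KL and 2 KLG4m/m libraries, grouped by their labels; the 4 H3K27ac libraries were not analysed here. Per the labels, chromatin was cut with a protein A/G-MNase fusion. The authors trimmed reads with Trim Galore 0.6.10, mapped them with BWA 0.7.15, removed duplicates (Picard 2.17.3), called peaks with MACS2 2.2.7.1 and named HOMER 4.11.1 (versions from the submitters' processing notes). The deposited counts are whole reads per peak without normalization. The table also holds CPM, and a log2 fold change, average log2 CPM, F statistic, p-value and adjusted p-value of the authors' own comparison, none of which was used. The methods name an Ensembl mouse release for mapping, without a build. Scaffold names in the table are those of GRCm39, peak positions differ from those of GRCm38, and RefSeq promoter windows (GRCm38.p6) were not lined up with peaks by position.

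Counts of all 35486 peaks, and counts summed over the peaks of each of 20871 genes, were fitted in R 4.3.3 with edgeR 4.0.16 (TMM scaling, factors 0.995 to 1.00, quasi-likelihood test, no filter). Genes are those of the authors' annotation of each peak. Scaling to reads in peaks hides any shift shared by all peaks. Intervals come from the fit, and depth limits weak peaks most. The scripts were tested on simulated data. Alternatives were total-read scaling, DESeq2 size factors, DESeq2 1.42.0, limma 3.58.1 on log2(CPM + 1) with and without quantile normalization, a mean of at least 10 CPM, peaks within 1 kb, the strongest peak, an unadjusted p, and leaving out each library. All members are named whatever their result. Of each wider list, at most 6 genes in each direction past the threshold are named, and peaks of other genes are named within 50 kb of a called member peak, except for a few items that are not reported here. The members and lists were chosen with earlier results of these data known.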

Additional observations from a re-analysis of the deposited data

How the results depend on the processing

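The 2 called member peaks became 1 (the Epcam promoter peak) with DESeq2, with quantile normalization, with a mean of at least 10 CPM, and 6 at an unadjusted p under 0.05; leaving out 1 library gave 0 to 2. The 2 called genes became 1 (Epcam) with DESeq2, with peaks within 1 kb and with the strongest peak, and leaving out 1 library gave 0 to 2. Both counts were 0 without either KLG4m/m library, where edgeR called 0 of all 35486 peaks (5486 and 5178 at an unadjusted p under 0.05, with 5 and 3 member peaks among them). A group left with 1 library was assumed to vary like the other. The epithelial median log2 fold change was -0.38 with peaks within 1 kb and -0.46 to -0.15 with 1 library left out. The mesenchymal median was 0.036 with peaks within 1 kb and 0.10 to 0.13 with 1 library left out, and the difference of the medians was -0.58 to -0.25. Values that changed sign, all uncalled, were Grhl2 and its peak (0.0020 without KLG4m/m library 3), Zeb2 (-0.052 with peaks within 1 kb), the Cdh1 peak at 30.0 kb (-0.24 without KL library 1, -0.54 without KLG4m/m library 4, up to 0.50 without KLG4m/m library 3), the Zeb2 start-site peak (0.17 without KL library 2, 0.01 without KLG4m/m library 4), the Zeb2 peak at 1059 bp (0.06 without KL library 1, 0.15 without KLG4m/m library 4) and the Snai1 start-site peak (-0.024 without KLG4m/m library 3, up to 0.053 without KLG4m/m library 4). The cause was not tested. The other 2 scalings and limma on log2(CPM + 1) left both counts at 2. Of 329 alternative values for single genes and peaks, 305 kept direction and side of the threshold, 14 lost a call and 10 changed sign. Most of the 329 belong to genes and peaks that were not called and so had no call to lose. All 14 lost calls were those of Epcam, Cdh1, the Epcam promoter peak and the distal Zeb2 peak. Esrp1 has no peak within 1 kb, so that alternative gave it no value. No paired analysis was possible because the KL libraries are numbered 1 and 2 and the KLG4m/m libraries 3 and 4, so no number is shared.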
